A study of Rattus norvegicus with 24 samples.

Results

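miR-219 and miR-338 are the miRNAs best known from oligodendrocytes, the cells that wrap axons of the brain in myelin. Rows of the deposited miRNA count tables whose names give miR-219a or miR-338 with an arm were taken, which gave 5 of 728 miRNA rows: rno-miR-219a-5p, rno-miR-219a-1-3p, rno-miR-219a-2-3p, rno-miR-338-3p and rno-miR-338-5p. An arm is the 5′ or 3′ strand of the precursor hairpin from which a mature miRNA is cut. Adult male Sprague-Dawley rats had either lateral fluid-percussion injury over the left parietal cortex (TBI), in which a fluid pulse strikes the dura, or the same surgery with no pulse (sham). Perilesional cortex and ipsilateral thalamus were taken from each rat 3 months later, giving 4 groups of 6 libraries, sham cortex, TBI cortex, sham thalamus and TBI thalamus, from 12 rats. The TBI rats had been chosen for chronic inflammation around the lesion on imaging, so they stand for such rats and not for all injured rats. The tissue was dissected in bulk, with no sorting of cells. In such tissue a smaller number of cells of a type and less RNA per cell cannot be told apart.

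Oligodendrocytes arise from dividing precursors, and miR-219 and miR-338 rise as these precursors stop dividing and form myelin. They are known to repress factors that hold the precursors back, among them the growth factor receptor PDGFRA and the transcription factor SOX6. The thalamus is crossed by many myelinated fibres, and traumatic injury is known to damage myelinated tracts. The comparisons below therefore ask how the 5 miRNAs differed between cortex and thalamus, and whether they differed between TBI and sham rats.

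The mature sequences are shown first because the results below are given arm by arm, and the sequences are what distinguishes the arms. All 5 were found in RefSeq (rat build GRCr8). Capitals mark the seed, bases 2 to 8, with which a miRNA pairs to its targets.
rno-miR-219a-5p: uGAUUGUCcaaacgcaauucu
rno-miR-338-3p: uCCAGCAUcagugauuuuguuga
rno-miR-219a-2-3p: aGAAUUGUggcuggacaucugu
rno-miR-338-5p: aACAAUAUccuggugcugagug
rno-miR-219a-1-3p: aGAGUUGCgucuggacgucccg
Each had a seed of its own, and none of the other mature sequences among the 693 in the RefSeq table shared one of these seeds. The GC content was 38.1% for miR-219a-5p and 39.1% for miR-338-3p, 45.5% for both miR-219a-2-3p and miR-338-5p, and 63.6% for miR-219a-1-3p.

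The hairpins show which arms come from one transcript, and here capitals mark the arms.
Mir338 (chr10:105796342-105796407, minus strand): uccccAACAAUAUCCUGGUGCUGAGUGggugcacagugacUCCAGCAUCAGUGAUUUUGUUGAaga
Mir219-2 (chr3:33516504-33516599, minus strand): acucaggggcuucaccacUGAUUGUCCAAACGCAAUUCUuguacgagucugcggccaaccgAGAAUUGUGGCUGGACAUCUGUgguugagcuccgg
Mir219a1 (chr20:4831580-4831689, plus strand): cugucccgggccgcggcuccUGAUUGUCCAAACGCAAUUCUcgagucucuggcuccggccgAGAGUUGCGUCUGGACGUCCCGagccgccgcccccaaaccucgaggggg
Mir338 lies within the bounds of Aatk, a brain-expressed kinase gene, and Mir219-2 within the bounds of Cercam. Exon and intron positions were not analysed here. The 5p arm of both miR-219a hairpins has the same sequence, so reads of miR-219a-5p could not be divided between Mir219-2 and Mir219a1. The 3p arms differ at 7 of 22 positions and were counted apart.

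Libraries held 744564 to 4069284 miRNA reads in cortex and 523298 to 4139901 in thalamus. Levels are given as CPM, the reads of a miRNA relative to all miRNA reads of its library, scaled by trimmed mean of M-values (TMM) factors from 1 fit of all 24 libraries, which ran from 0.718 to 1.05 in cortex and from 0.854 to 1.25 in thalamus. Each comparison was fitted with edgeR (quasi-likelihood) over all miRNAs that passed its filter on low counts, and a difference passed when its Benjamini-Hochberg adjusted p was under 0.05. Brain tissue was checked with 7 neuronal miRNAs, among them miR-124-3p and miR-128-3p, none of which was at 0 in any group. Their summed level was 248879 to 479073 CPM in sham cortex, 184734 to 245980 in TBI cortex, 113548 to 275277 in sham thalamus and 79284 to 184311 in TBI thalamus. These sums were thus lower in thalamus than in cortex and lower in TBI cortex than in sham cortex on average. miR-128-3p made up most of them, with a mean of 331367 of 352562 CPM in sham cortex and 191513 of 209469 in TBI cortex. They therefore describe that miRNA more than the list. In TBI cortex, miR-124-3p and miR-137-3p had higher means than in sham cortex, and the rest of the list had lower means. CPM are shares of a library, and the part of the neuronal reads in the differences below was not tested.

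The arms of these hairpins were far apart in abundance. miR-219a-2-3p, the 3p arm of Mir219-2, had the highest level of the 5 in every group. Its mean was 3499.7 CPM ± 341 (SD, n = 6) in sham cortex and 11849 ± 2836 (SD, n = 6) in sham thalamus, where it was the miRNA of rank 19 among 578 detected. miR-338-5p followed, at 1262 CPM ± 166 (SD, n = 6) in sham cortex and 3049 ± 574 (SD, n = 6) in sham thalamus. miR-338-3p and miR-219a-5p, the arms most often studied in oligodendrocytes, were lower and their ranges overlapped within each group. miR-219a-1-3p was scarce, with 2 to 37 reads per library and group means of 5.35 to 10.5 CPM. Reads of different sequences are not counts of molecules, so these levels are compared as reads.

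All of the miRNAs but the scarce miR-219a-1-3p were higher in thalamus than in cortex, 4 of 5 in sham rats and the same 4 of 5 in TBI rats. Of all 407 miRNAs tested, 12.8% passed as higher in thalamus in sham rats and 14% in TBI rats. The differences of the 4 were 2.42-fold to 3.39-fold in sham rats and 2.45-fold to 3.13-fold in TBI rats. These fits had no term for the rat, so the libraries of a rat were treated as independent. With rat as a block, an alternative, the same 4 passed in both groups.

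For miR-219a-2-3p, the lowest, median and highest levels were 3103, 3485 and 3917 CPM in sham cortex and 8564, 11699 and 16899 CPM in sham thalamus. In TBI rats they were 3143, 3895 and 4494 CPM in cortex and 10127, 12199 and 13576 CPM in thalamus. Every thalamus library was thus above every cortex library of the same group, which held for 7.37% of all miRNAs tested in sham rats and for 4.91% in TBI rats. The log2 difference was 1.76 ± 0.14 (SE) in sham rats (edgeR, adjusted p = 1.09e-09) and 1.64 ± 0.14 in TBI rats (edgeR, adjusted p = 4.25e-09). By p-value it was the second of the 407 miRNAs in both groups.

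For rno-miR-338-5p, the levels were 1093, 1203.5 and 1511 CPM in sham cortex and 2262, 3053 and 3789 CPM in sham thalamus. In TBI rats they were 1156, 1296 and 1499 CPM in cortex and 2735, 3187 and 3863 CPM in thalamus. The groups did not overlap, as for miR-219a-2-3p, and the spread within each group was narrow. The log2 difference was 1.27 ± 0.14 (SE) in sham rats (edgeR, adjusted p = 1.50e-07) and 1.30 ± 0.14 in TBI rats (edgeR, adjusted p = 1.28e-07).

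For rno-miR-338-3p, the levels were 192.8, 229 and 319 CPM in sham cortex and 394, 685 and 738 CPM in sham thalamus. In TBI rats they were 150.1, 272 and 373 CPM in cortex and 427, 614 and 902 CPM in thalamus. All thalamus libraries were again above all cortex libraries of their group, but by a narrow margin in TBI rats. The log2 difference was 1.36 ± 0.23 (SE) in sham rats (edgeR, adjusted p = 6.86e-05) and 1.29 ± 0.23 in TBI rats (edgeR, adjusted p = 0.000152). The error was wider for this arm than for miR-338-5p.

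For miR-219a-5p, the levels were 129.4, 163 and 332 CPM in sham cortex and 291, 588 and 870.3 CPM in sham thalamus. In TBI rats they were 74.3, 169.7 and 343 CPM in cortex and 234, 450.1 and 809.7 CPM in thalamus. The groups overlapped, with 5 of 6 sham and 4 of 6 TBI thalamus libraries above the highest cortex library. The log2 difference was 1.69 ± 0.35 (SE) in sham rats (edgeR, adjusted p = 0.000621) and 1.44 ± 0.35 in TBI rats (edgeR, adjusted p = 0.00293).

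miR-219a-1-3p, the only arm that comes from Mir219a1 alone, was at 2.47, 6.37 and 8.02 CPM in sham cortex and 5.93, 8.11 and 24.6 CPM in sham thalamus. In TBI rats it was at 3.22, 5.39 and 7.20 CPM in cortex and 4.42, 6.82 and 14.4 CPM in thalamus. Its log2 difference was 0.63 ± 0.35 (SE) in sham rats (edgeR, adjusted p = 0.193) and 0.66 ± 0.34 in TBI rats (edgeR, adjusted p = 0.172). The 95% intervals, −0.08 to 1.35 and −0.05 to 1.37 on the log2 scale, hold both 0 and 1. With library size alone as the scaling, the sham difference was 1.09 and passed the test (edgeR, adjusted p = 0.00804), while the median of all miRNAs moved from 0.04 to 0.46. Without rat 55, whose thalamus library had the highest level, the sham difference was 0.27.

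**Figure D1:**
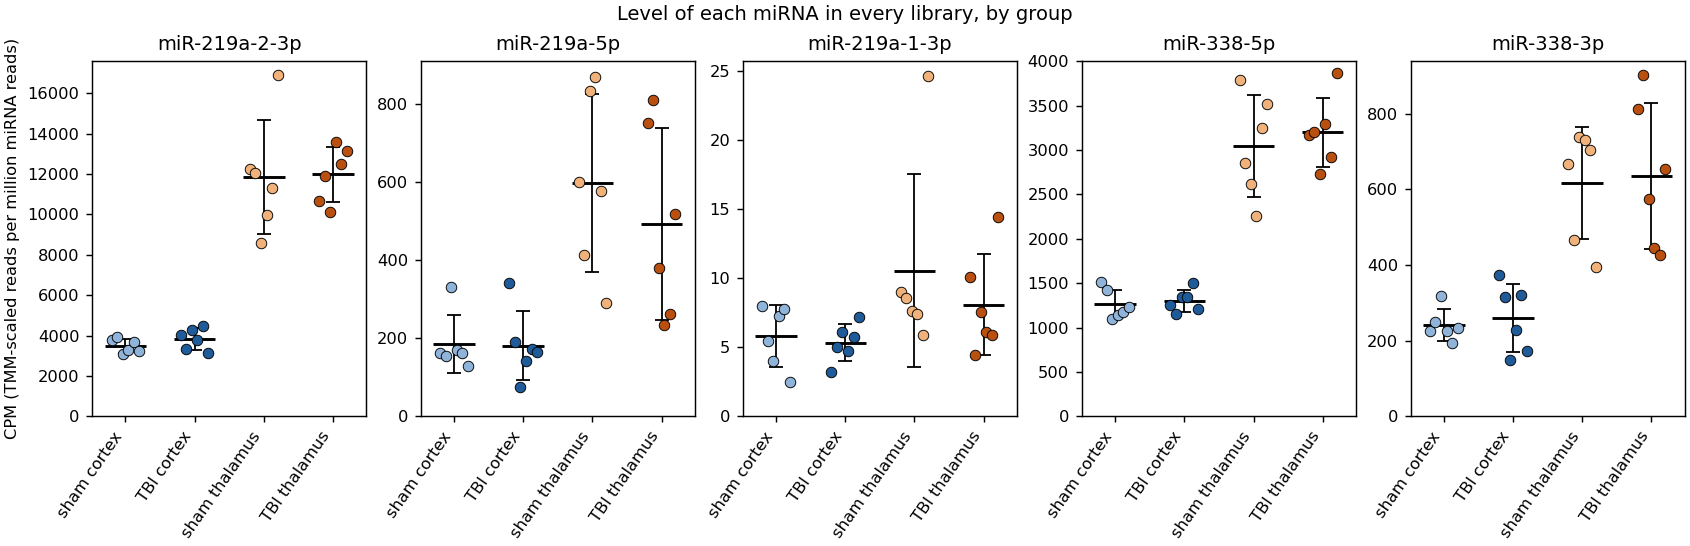
Level of each of the 5 miRNAs in every library (points), with group means and SDs (bars, n = 6), in CPM on axes that start at 0; each panel has its own scale. The thalamus points lie above the cortex points for miR-219a-2-3p, miR-338-5p and miR-338-3p, overlap for miR-219a-5p and miR-219a-1-3p, and TBI and sham points of a region overlap in each panel.

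Each rat gave both regions, so the difference was also described inside single animals. The thalamus library was above the cortex library of the same rat in 12 of 12 rats for each of the 4 that passed. These 4 had passed on the same libraries, and the share of all miRNAs with this pattern was not counted. The count is thus a description and no further support. The ratio of thalamus to cortex ran from 2.38 to 5.25 for miR-219a-2-3p, from 1.95 to 3.19 for miR-338-5p, from 1.33 to 3.82 for miR-338-3p and from 1.51 to 5.14 for miR-219a-5p. The ratio of miR-338-5p varied least among these, with an SD of 0.22 on the log2 scale in sham rats and 0.27 in TBI rats. That of miR-219a-5p had an SD of 0.44 and 0.72. miR-219a-1-3p was higher in thalamus in 10 of 12 rats, and its highest ratio, 9.99 in sham rat 55, rested on 2 reads in cortex and 11 in thalamus.

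**Figure D2:**
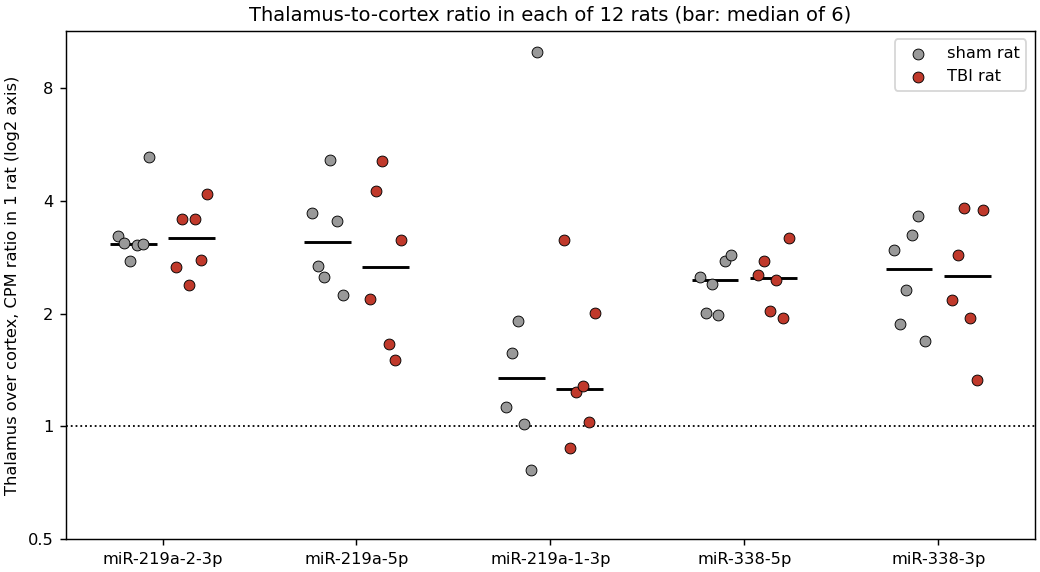
Ratio of the thalamus level to the cortex level of the same rat (points, log2 axis; grey, 6 sham rats; red, 6 TBI rats; bar, median of 6) for each miRNA. Points of 4 miRNAs lie above 1 in 12 of 12 rats, and those of miR-219a-1-3p lie on both sides of 1.

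Other miRNAs linked to oligodendrocytes went in both directions. In a list of 9 that promote or mark these cells, with the 5 above included, 5 were higher and 1 was lower in thalamus in sham rats, with a median log2 difference of 1.27 against 0.04 over all miRNAs tested. In TBI rats 4 were higher and 1 was lower, with a median of 0.78 against −0.03. These medians lean on the 5 miRNAs already described, although the TBI median was the value of miR-32-5p, 1 of the other 4. The other 4 of the list had a median of 0.11 in sham rats, with 1 higher and 1 lower, and of 0.03 in TBI rats, with 0 higher and 1 lower, near those of all miRNAs. Of these 4, miR-32-5p was higher in thalamus in sham rats by 1.34 on the log2 scale (SE 0.48; edgeR, adjusted p = 0.0429), and miR-138-5p was lower, by −0.57 in sham rats (edgeR, adjusted p = 0.00408) and −1.06 in TBI rats (edgeR, adjusted p = 6.37e-06). miR-138-5p is also found in neurons, where it acts at synapses. The call of miR-32-5p held in 12 of 19 alternative fits and was lost without any 1 of sham rats 26, 32, 34, 38 and 50. The fits in which it held include those without 1 TBI rat, which removed no sham library and are a weak check. The sham call of miR-138-5p was lost without rat 50 (−0.43; edgeR, adjusted p = 0.108) and in 2 other of 20 fits. miR-7a-5p differed by 0.55 in sham rats (edgeR, adjusted p = 0.0656) and miR-23a-3p by −0.34 (edgeR, adjusted p = 0.445). In sham rats miR-7a-5p passed in 9 of 20 alternative fits and was higher in thalamus in all of them, by 0.38 to 0.95. Its 9 passes include the fits without TBI rat 24, 45, 52 or 63, which kept all sham libraries. miR-23a-3p passed in 0 of 20. Of 8 miRNAs that act in precursors or restrain differentiation, 2 were lower in thalamus in both groups and none was higher, against 50 lower of all 407 miRNAs in sham rats and 54 in TBI rats. These were miR-9a-5p (−0.70 in sham and −0.52 in TBI rats) and miR-212-3p (−1.20 and −1.13), both of which are also neuronal. The call of miR-212-3p held in 20 of 20 alternative fits in either group, and that of miR-9a-5p in 19 of 20 in sham and 14 of 20 in TBI rats. The TBI call of miR-9a-5p was lost without any 1 of TBI rats 24, 52 and 63. It was also lost without sham rat 50, whose removal took out no TBI library and changed only the shared fit.

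The lists for other cells gave the tissue context of this difference. Of 7 neuronal miRNAs, 2 were lower in thalamus in sham rats and 4 in TBI rats, with median log2 differences of −0.32 and −0.77. miR-128-3p, for example, was lower by −1.34 in sham rats (edgeR, adjusted p = 6.09e-05). Of 6 miRNAs of microglia and leukocytes none passed between the regions. miR-21-5p, the only testable miRNA of 3 listed for reactive glia, was higher in thalamus by 1.15 in sham rats (edgeR, adjusted p = 1.53e-05) and 1.10 in TBI rats (edgeR, adjusted p = 3.18e-05). Of 5 vessel and blood miRNAs, 1 was lower in sham rats and none passed in TBI rats. Of 2 choroid plexus miRNAs, miR-204-5p was higher in TBI rats by 1.49 (edgeR, adjusted p = 0.0338), where the summed level of both ran from 955 to 13795 CPM, and by 0.60 without rat 45 (edgeR, adjusted p = 0.210). Over all miRNAs, 52 were higher and 50 lower in thalamus in sham rats, and 57 and 54 in TBI rats. With library size alone, 22 of 168 called miRNAs were lower in sham rats and 34 of 103 in TBI rats.

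None of the 5 miRNAs passed the test between TBI and sham rats in either region. In cortex 5.66% of the 371 miRNAs tested passed the test, and in thalamus 0.513% of 390. In cortex 4 of the 5 were testable, as miR-219a-1-3p had too few reads there to pass the filter, and all 5 in thalamus. Injury fits were made per region, with TMM factors of that region, so their folds need not equal the ratios of the levels above.

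In perilesional cortex, the log2 difference of TBI from sham was 0.17 for miR-219a-2-3p, 0.14 for miR-338-3p, 0.09 for miR-338-5p and −0.00 for miR-219a-5p. The 95% interval for miR-219a-2-3p, −0.10 to 0.44 on the log2 scale, reaches 1.36-fold higher, and that for miR-338-5p, −0.21 to 0.38, reaches 1.30-fold. For miR-338-3p the interval was −0.29 to 0.57 and for miR-219a-5p −0.60 to 0.60. The latter spans 0.66-fold to 1.51-fold, which is not a limit of detection. Adjusted p-values (edgeR) were 0.406, 0.738, 0.767 and 0.999 in the order given. With 1 rat left out in turn the difference of miR-219a-2-3p ran from 0.03 to 0.22. For miR-219a-2-3p, 4 of 6 TBI libraries were above the sham median and 3 above the highest sham library. With library size alone as the scaling its difference was 0.38 and passed the test (edgeR, adjusted p = 0.0397), while the median of all cortical miRNAs moved from 0.05 to 0.25. Relative to that median the difference was 0.12 in the TMM fit and 0.13 with library size alone.

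In ipsilateral thalamus, the log2 difference was 0.01 for miR-219a-2-3p, 0.07 for miR-338-5p, 0.05 for miR-338-3p, −0.26 for miR-219a-5p and −0.15 for miR-219a-1-3p. The 95% intervals were −0.38 to 0.39, −0.30 to 0.43, −0.46 to 0.56, −1.01 to 0.49 and −0.95 to 0.65 on the log2 scale. Adjusted p-values (edgeR) ran from 0.850 to 0.996. The lower value of miR-219a-5p came with wide scatter in both groups, with coefficients of variation of 38.02% in sham and 49.8% in TBI thalamus. It ran from −0.39 without rat 24 to −0.07 without rat 38. miR-219a-2-3p varied by 11.4% in TBI thalamus and 23.9% in sham thalamus.

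**Figure D3:**
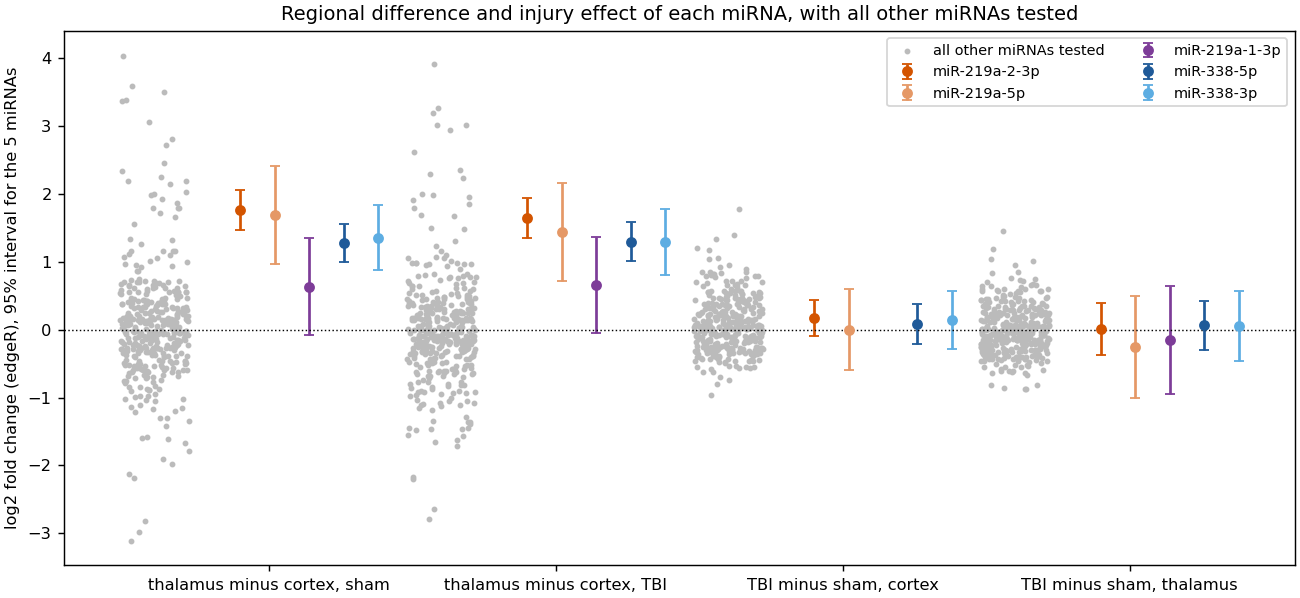
Log2 fold changes from edgeR in the 2 regional and the 2 injury comparisons, with 95% intervals for the 5 miRNAs (coloured points) and all other miRNAs tested as grey points; miR-219a-1-3p was not tested in cortex. The 4 abundant miRNAs lie near 1.3 to 1.8 in the regional comparisons, and the intervals of all 5 miRNAs hold 0 in the injury comparisons.

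No change of the regional difference with injury was detected. Tested as an interaction over 24 libraries, the regional difference in TBI rats minus that in sham rats was 0.03 for miR-338-5p, 0.03 for miR-219a-1-3p, −0.07 for miR-338-3p, −0.12 for miR-219a-2-3p and −0.25 for miR-219a-5p on the log2 scale (edgeR, each adjusted p = 1.000). Across all 407 miRNAs, 0% passed this test with edgeR, 0 with DESeq2, and 16 had an unadjusted p under the threshold. The 95% intervals were −0.37 to 0.42 for miR-338-5p and −0.52 to 0.29 for miR-219a-2-3p, and −1.25 to 0.75 for miR-219a-5p, which spans 0.421-fold to 1.68-fold.

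Single miRNAs of the other lists passed between TBI and sham rats, and no list was tested as a whole or against the 5 miRNAs. The shares over all miRNAs, 5.66% in cortex and 0.513% in thalamus, are the background of these counts. In cortex, miR-23a-3p of the oligodendrocyte list was higher by 0.79 (SE 0.20; edgeR, adjusted p = 0.0369), and 2 of 8 miRNAs of precursors were higher, miR-17-5p by 0.89 (edgeR, adjusted p = 0.0361) and miR-20a-5p by 0.85 (edgeR, adjusted p = 0.00634). Both come from the same polycistronic transcript, which is known to promote cell growth. The median of the precursor list was 0.28 in cortex and 0.32 in thalamus, against 0.05 and −0.03 over all miRNAs, and none of its members passed in thalamus. Of 7 neuronal miRNAs, miR-128-3p (−0.75; edgeR, adjusted p = 0.0231) and miR-132-3p (−0.55; edgeR, adjusted p = 0.0369) were lower in cortex and none passed in thalamus. Of the microglia and leukocyte miRNAs, 2 of 5 tested were higher in thalamus, miR-146a-5p by 1.04 and miR-155-5p by 1.45 (edgeR, each adjusted p = 0.0207), and 0 of 6 passed in cortex, where the median was 0.65. No vessel or reactive glia miRNA passed in either region, and miR-211-5p of the choroid plexus list was higher in cortex by 1.33 (edgeR, adjusted p = 0.0369). Of 20 alternative fits in cortex, the call held in 18 for miR-20a-5p, 14 for miR-128-3p, 12 for miR-132-3p, 10 for miR-17-5p and for miR-211-5p, and 9 for miR-23a-3p. In thalamus, miR-146a-5p held in 14 of 19 and miR-155-5p in 14 of 18, and none of them changed direction.

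Both arms of a hairpin are cut from the same precursor, so the ratio of their reads was examined in each library. miR-338-5p had more reads than miR-338-3p in 24 of 24 libraries, by 3.10-fold to 8.93-fold. miR-219a-2-3p had more reads than miR-219a-5p in 24 of 24 libraries, by 9.34-fold to 58.1-fold. How reads of miR-219a-5p, which match 2 hairpins, were counted is not given in the sources used here, and splitting or dropping such reads would change its level and this ratio. The ratio is therefore that of the 2 deposited counts and not of the arms of Mir219-2 alone. As means on the log2 scale, the ratio of the Mir338 arms was 2.40 ± 0.34 in sham cortex, 2.39 ± 0.55 in TBI cortex, 2.32 ± 0.56 in sham thalamus and 2.38 ± 0.43 in TBI thalamus (SD, n = 6 each). That of miR-219a-2-3p over miR-219a-5p was 4.30 ± 0.55, 4.53 ± 0.77, 4.37 ± 0.92 and 4.75 ± 0.84 in the same order.

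Neither ratio differed by region or injury beyond the spread between rats. TBI minus sham was −0.00 in cortex (exact permutation test over all divisions of 12 libraries, two-sided, p = 0.994) and 0.05 in thalamus (p = 0.855, exact permutation test) for the Mir338 arms. For miR-219a it was 0.23 (p = 0.582, exact permutation test) and 0.38 (p = 0.463, exact permutation test). Within rats, thalamus minus cortex was −0.07 in sham (exact permutation test over 64 sign changes, two-sided, p = 0.750) and −0.02 in TBI rats (p = 0.906, exact permutation test) for the Mir338 arms, and 0.07 (p = 0.781, exact permutation test) and 0.23 (p = 0.469, exact permutation test) for miR-219a. The adjusted p was 0.994 for each of these 8 exact permutation tests, and the smallest p the design allows is 0.00217 for the former and 0.0313 for the latter.

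The levels of the arms were also compared from library to library within groups. After the mean of each group was subtracted, Pearson's r of log2(CPM + 1) over 24 libraries was −0.10 between miR-338-5p and miR-338-3p, and −0.51 between miR-219a-2-3p and miR-219a-5p. Between miR-338-3p and miR-219a-5p it was 0.90, and between miR-338-5p and miR-219a-2-3p 0.71. The other pairings across hairpins were negative, −0.37 between miR-338-3p and miR-219a-2-3p and −0.28 between miR-338-5p and miR-219a-5p. The 24 libraries share their rats in pairs, and the positive pairings were singled out after their values were seen, so these values are a description. In each group of 6 libraries, r between miR-338-3p and miR-219a-5p was 0.77 in sham cortex, 0.83 in TBI cortex, 0.95 in sham thalamus and 0.99 in TBI thalamus. In sham cortex the value rested on few libraries, as rho was −0.03 and r was −0.30 without the 2 libraries farthest from the median. Between miR-338-5p and miR-219a-2-3p r was 0.80, 0.85, 0.69 and 0.64 in the same order. Without the 2 farthest libraries it was 0.40, 0.73, 0.87 and 0.09, so the value in TBI thalamus rested on those libraries.

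**Figure D4:**
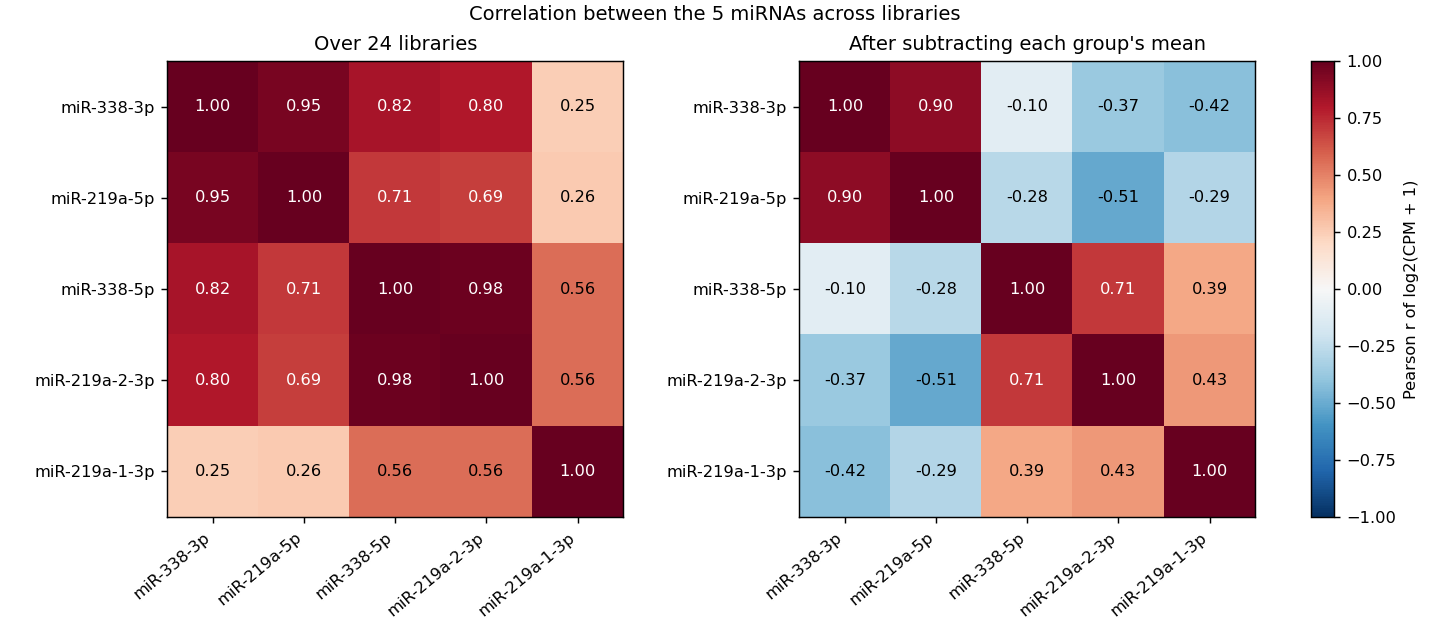
Pearson's r of log2(CPM + 1) between the 5 miRNAs over 24 libraries, before (left) and after (right) the mean of each group was subtracted; red is positive and blue negative. On the right, miR-338-3p pairs with miR-219a-5p (0.90) and miR-338-5p with miR-219a-2-3p (0.71), while the other pairings across these hairpins are negative (−0.37 and −0.28).

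Of 18 relations set up for testing, 8 between arms of 1 hairpin within a group and 10 between the regions of a rat, none passed after adjustment. Between arms, r ran from −0.92 to 0.24, with the lowest for miR-219a-2-3p and miR-219a-5p in sham thalamus. By exact permutation its p was 0.0111 (adjusted 0.200), and rho was −0.77 with a p of 0.103 (adjusted 0.525). Without the 2 libraries farthest from the median, r was −0.83. Between regions, r ran from −0.80 to 0.69. The highest was for miR-219a-5p in sham rats, with an exact permutation p of 0.126 (adjusted 0.758). Its rho was 0.89, with an exact permutation p of 0.0333 (adjusted 0.525), and r was 0.98 without the 2 rats farthest from the median.

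The ratios of both hairpins moved together from library to library. Within groups, r between them on the log2 scale was 0.91 in sham cortex, 0.82 in TBI cortex, 0.97 in sham thalamus and 0.95 in TBI thalamus, as a description over 6 libraries each. Among the miRNAs most like miR-338-3p after group centring were miR-219a-5p (0.90), miR-29c-3p (0.87), miR-384-3p (0.85), miR-29b-3p (0.84) and miR-33-5p (0.84). Over 364 other tested miRNAs with a RefSeq sequence, the likeness to miR-338-3p fell with GC content. Its median was 0.57 for the 73 miRNAs with a GC content under 40% and −0.21 for the 172 with at least 50%. For miR-219a-5p these medians were 0.59 and −0.22. For miR-338-5p they were −0.23 and 0.04, and for miR-219a-2-3p −0.39 and 0.05.

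A library's balance of low-GC and high-GC miRNAs, the mean log2 CPM of those 73 minus that of those 172, ran with the arm ratios. The 4 libraries with the lowest balance, −0.13 to 0.17, were sham thalamus of rat 55, TBI thalamus of rats 52 and 56 and TBI cortex of rat 45, and had the highest ratios of miR-219a-2-3p over miR-219a-5p, 47.7 to 58.1. The 6 libraries with the highest balance, 0.94 to 1.21, had the 6 lowest ratios, 9.34 to 14.7. Within groups, r of the balance with this ratio ran from −0.81 to −0.98, and with the ratio of the Mir338 arms from −0.84 to −0.94. In sham cortex rat 34 stood apart on both axes, and rho was −0.60 for either ratio. Depth moved with the ratios in thalamus, where r of the log2 miRNA reads with the 2 ratios ran from −0.63 to −0.93, and less in cortex, from −0.10 to −0.46. The part of base composition, depth or tissue in the arm ratios was not tested. With the balance as a covariate, an alternative chosen after seeing the data, the regional differences were 1.58 in sham and 1.24 in TBI rats for miR-219a-5p and 1.29 and 1.19 for miR-338-3p, with adjusted p (edgeR) of 8.25e-09, 3.31e-07, 6.13e-08 and 2.19e-07. Within groups, r of the balance with the level was 0.86 to 0.99 for miR-219a-5p and 0.75 to 0.97 for miR-338-3p. The covariate thus takes up scatter of these 2 miRNAs, and these p-values are a description and no further support.

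**Figure D5:**
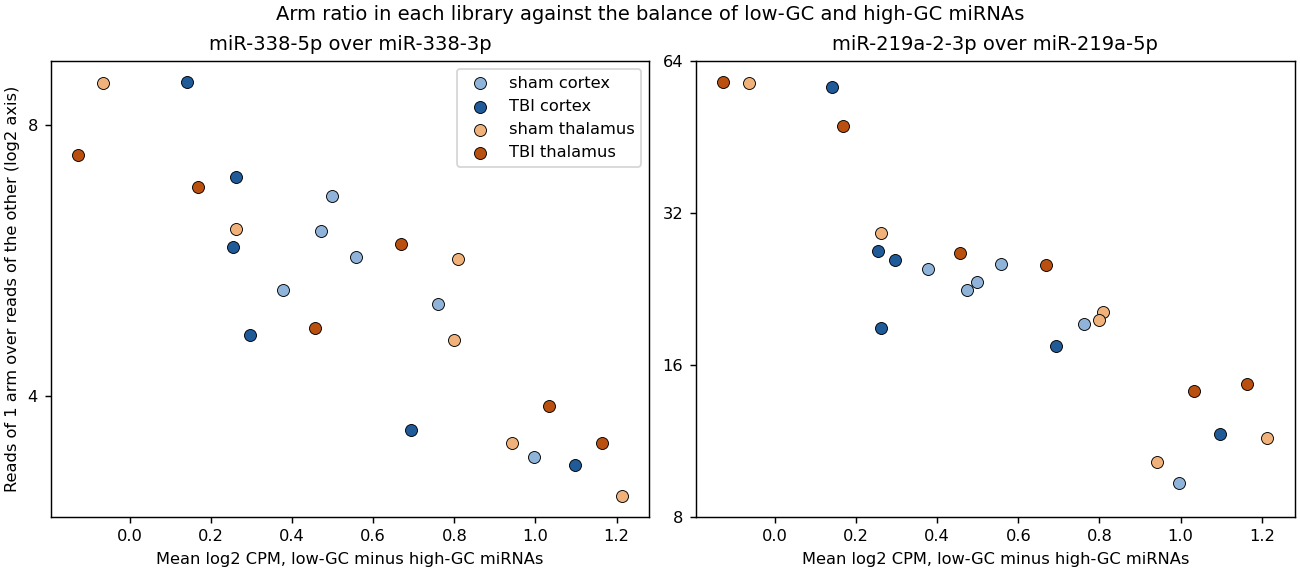
Ratio of reads of the arms (log2 axis; left, miR-338-5p over miR-338-3p; right, miR-219a-2-3p over miR-219a-5p) in each of 24 libraries against the mean log2 CPM of low-GC minus high-GC miRNAs, with colours for the groups. Both ratios fall from left to right in each group, the right one from 58.1 to 9.34.

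Over all 24 libraries without centring, the likeness followed the regions. The 5 miRNAs most like miR-338-3p were miR-219a-5p (r 0.95), miR-135a-5p (0.93), miR-758-3p (0.85), miR-338-5p (0.82) and miR-216a-5p (0.81), of 406 compared. The 3 least like were miR-128-1-5p (−0.94), miR-139-5p (−0.91) and miR-873-3p (−0.90). miR-338-5p was most like miR-219a-2-3p (0.98). The libraries share the regional difference and come in pairs from 12 rats, so these values are a description.

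Reads of the miR-219a 3p arms came almost wholly from Mir219-2. miR-219a-1-3p made up 109 of 73410 reads of both 3p arms in cortex, or 0.148%, and 230 of 314728 in thalamus, or 0.0731%. In single libraries the share ran from 0.0765% (exact 95% binomial interval 0.00926% to 0.276%) to 0.229% (0.105% to 0.434%) in cortex. In thalamus it ran from 0.0372% (0.0203% to 0.0624%) to 0.145% (0.0726% to 0.260%). Such intervals cover counting error only. On the opposite strand of these hairpins lie Mir3065 and Mir2964, so reads there serve as a check on strand. miR-3065-3p and miR-3065-5p had no read in cortex and 1 read each in 1 thalamus library. miR-219b, from Mir2964, had 0 to 4 reads per library. A count of 0 allows up to 4.67 CPM in the shallowest cortex library and 6.71 CPM in the shallowest thalamus library (3 reads).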

How the data were processed

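Small RNA libraries were prepared from total RNA with a NEBNext kit and sequenced on an Illumina NextSeq, per the study's methods. The authors checked reads with FastQC (submitters' processing notes), mapped them to rat assembly RGSC3.4 with miRBase annotation, and deposited whole read counts per miRNA and library; the aligner and counter are not given in the sources used here. The authors' CPM tables were not used. Groups and rat numbers came from the sample titles.

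Counts were tested in R 4.3.3 with edgeR 4.0.16 (filterByExpr with a minimum count of 10, TMM, quasi-likelihood test, Benjamini-Hochberg adjustment over all miRNAs tested), in 12 libraries per region for injury and in a 4-group fit of 24 libraries for region and interaction. SEs are the absolute log2 fold change over the square root of F. Library sizes are all miRNA reads, and 444 tRNA rows of the cortex table were left out. Arm ratios had 0.5 read added to each arm and were compared by exact permutation tests with scipy 1.17.1; scripts were tested on simulated data. The rat number in the titles pairs libraries of 1 animal. Deviations from group means correlated between the regions of a rat with a median of 0.38 (−0.18 to 0.64, above 0.1 in 8 of 12 rats). Libraries of different rats were not compared in this way, so these values describe the pairs and do not test the pairing. No 2 libraries of a group were duplicates (chi-square per degree of freedom of at least 31.4 over 60 pairs). Each rat gave 1 library per region, so p-values of the injury comparisons and of the arm ratios measure the spread between rats. The main regional and interaction fits had no term for the rat. Their p-values treat the libraries of a rat as independent and do not measure the spread of differences within rats.

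Named are the 5 miRNAs, at most 4 miRNAs of each list with the smallest p, and the miRNAs most and least like miR-338-3p. Members and lists were chosen with earlier results of these data known. Sequences came from RefSeq (GRCr8), which is not the assembly the authors used. Alternatives for each edgeR comparison were DESeq2 1.42.0, its size factors, library size alone, the study's 4 PCR reference miRNAs, other filters and each rat left out. A GC covariate was added after seeing the data. Injury was also tested in 1 fit of 24 libraries and, in cortex, with tRNA rows included. Region was also tested in the 12 libraries of a group alone, and region and interaction with a rat block. Leaving out a rat of the other group removed no library of a regional comparison.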

Additional observations from a re-analysis of the deposited data

Results flagged for a closer look

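In 28 sets of 6 values (the 5 miRNAs and the 2 arm ratios in 4 groups), 3 had a highest or lowest library whose gap to the next exceeded Dixon's 95% critical value. Chance would give about 1.4 in independent sets. These sets are not independent, as the ratios are built from the levels, so no excess is read from the count. miR-219a-1-3p in sham thalamus was at 24.6 CPM in rat 55 against 9.02 CPM in the next library, in the shallowest library of the series (523298 reads, 11 of them of this miRNA). miR-219a-5p in sham cortex was at 332 CPM in rat 34 against 169 CPM in the next, and the log2 ratio of miR-219a-2-3p over miR-219a-5p in the same library was 3.22 against 4.27. Without rat 34 the injury difference of miR-219a-5p in cortex was 0.21 on the log2 scale in place of −0.00, and without rat 55 that of miR-219a-1-3p in thalamus was 0.19 in place of −0.15; neither passed the test. Without rat 55 the regional difference of miR-219a-1-3p in sham rats was 0.27 in place of 0.63.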

How the results depend on the processing

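The higher thalamic level of miR-219a-2-3p, miR-219a-5p, miR-338-3p and miR-338-5p passed in 21 of 21 alternatives in sham and in TBI rats, with log2 differences of 1.24 or more for miR-219a-5p and 1.19 or more for miR-338-3p and adjusted p up to 0.0393. The alternatives share libraries and are not independent. In each group they include fits without a rat of the other group, which removed no library of that comparison. Such fits are also part of the total that follows. Of 490 alternative fold changes of the 5 miRNAs, 454 kept direction and side of the threshold, 34 turned direction and 2 newly passed, both with library size alone: miR-219a-2-3p in cortex after injury (0.38) and miR-219a-1-3p by region in sham rats (1.09). Among alternative values of the arm ratios and the correlations, counted apart, 80 kept direction and side of the threshold and 18 turned direction. None of the values that turned had passed, and the cause was not tested. With library size alone, miR-219a-5p in cortex was 0.20, the interaction −0.27 for miR-219a-1-3p and −0.22 for miR-338-5p, the r between regions for miR-338-3p in sham rats −0.066, and that between the Mir338 arms 0.11 in sham cortex and 0.23 in sham thalamus. Scaled to the 4 reference miRNAs, injury values were 0.025 for miR-219a-5p in cortex, and in thalamus −0.064 for miR-219a-2-3p, −0.11 for miR-338-3p and −0.048 for miR-338-5p, with interactions of −0.13 for miR-219a-1-3p and −0.14 for miR-338-5p. With tRNA rows in the fit miR-338-5p in cortex was −0.044. With rat as a replicate block the interaction of miR-219a-1-3p was −0.017, and the block changed no call of the 5 miRNAs. With the GC balance as covariate, miR-219a-5p in cortex was 0.19 and miR-219a-2-3p in thalamus −0.0030. Of the other listed miRNAs only miR-23a-3p by region in sham rats turned direction, to 0.12 with library size alone, and it had not passed.

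With 1 rat left out in turn, injury values in cortex ran from −0.28 to 0.21 for miR-219a-5p, −0.0030 to 0.23 for miR-338-3p and −0.047 to 0.13 for miR-338-5p. In thalamus they ran from −0.32 to 0.19 for miR-219a-1-3p, −0.088 to 0.22 for miR-219a-2-3p and −0.39 to −0.068 for miR-219a-5p. Interactions ran from −0.17 to 0.39 for miR-219a-1-3p, −0.16 to 0.017 for miR-219a-2-3p, −0.17 to 0.073 for miR-338-3p, −0.032 to 0.12 for miR-338-5p and −0.39 to −0.084 for miR-219a-5p. The log2 ratio of the Mir338 arms ran from −0.15 to 0.13 for injury in cortex, −0.084 to 0.22 in thalamus, and −0.24 to 0.056 (sham) and −0.13 to 0.16 (TBI) by region. That of the miR-219a arms ran from −0.035 to 0.42 for injury in cortex and −0.16 to 0.23 by region in sham rats.

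Over all miRNAs, injury in cortex gave 21 calls (11 higher), against 39 (36 higher) with library size alone, 40 (25 higher) with DESeq2, 28 (18 higher) with tRNA rows, 5 in 1 fit of 24 libraries, 0 with the 4 reference miRNAs and 4 to 30 with 1 rat left out. In thalamus the 2 calls became 0, 5, 1 and 3 with the reference miRNAs, 1 fit of 24 libraries, a mean of at least 50 counts and DESeq2. By region in sham rats 102 became 168 with library size alone. Library size alone moved the median of all miRNAs from −0.03 to 0.15 by region in TBI rats and from −0.01 to −0.27 for the interaction. Depth limits miR-219a-1-3p, where 1 read is worth up to 2.24 CPM.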
